A study of Mus musculus with 768 samples.

Results

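The genes described here are 10 stress genes, 8 immediate early genes (Fos, Fosb, Jun, Junb, Egr1, Atf3, Ier2 and Zfp36) and 2 Hsp70 genes (Hspa1a and Hspa1b). They were taken by symbol from the 24490 endogenous genes of the deposited tables, and all 10 passed the filter of a mean of at least 1 RPKM (reads normalized by gene length and mapped depth), which 11715 genes passed. The cells came from mammary tumors of 2 mice of the strain FVB/N-Tg(MMTVPyVT)634Mul/J, 14 weeks of age, in which the MMTV promoter drives the polyoma middle T oncogene in the mammary epithelium. No other treatment was given in the labels and there was no tumor-free or undissociated control. After enzymatic digestion at 37 °C, single live cells negative for EpCAM, CD45, CD31 and NG2 were sorted, 1 per well, and sequenced by Smart-seq2, a full-length method without molecular identifiers. Each tumor filled 1 plate of 384 wells, so the tumor is the replicate (n = 2), tumor and plate cannot be told apart, and wells are not replicates.

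Of 768 wells, 727 had at least 10000 reads outside the ERCC spike-ins and were kept, 373 from tumor 1 and 354 from tumor 2. The depth of kept wells, in reads on endogenous genes, had a median of 219264 in tumor 1 (range 10281 to 838772) and of 198180 in tumor 2 (range 10476 to 1190516). Cells were grouped by clustering without the stress genes and named from markers, giving 493 vCAF-like (261 and 232 by tumor), 140 mCAF-like (75 and 65), 46 cCAF-like (26 and 20) and 32 dCAF-like wells (9 and 23). These names follow the vascular, matrix, cycling and developmental fibroblast populations of the study. The labels call every well a cancer-associated fibroblast. The mean log2(RPKM + 1) of the mCAF-like markers, which include Dcn, Lum and Pdgfra, was 8.18 in the mCAF-like class and 0.89 in the vCAF-like class. The classes were named by these same markers, so this gap was largely fixed in advance and does not bear on the label. However, 16 wells stayed unnamed, 6 of them led by hemoglobin and other red cell genes.

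Immediate early genes are transcribed within minutes of a stimulus, without new protein synthesis, through factors that already sit in the cell, such as SRF and CREB. Fos, Fosb, Jun and Junb encode subunits of the dimeric transcription factor AP-1. Egr1 encodes a zinc finger transcription factor, Atf3 a stress-induced member of the ATF/CREB family, Ier2 an early-induced nuclear regulator, and Zfp36 the RNA-binding protein tristetraprolin, which promotes decay of AU-rich messengers. Hspa1a and Hspa1b encode the inducible Hsp70 chaperone and are switched on by the heat shock factor HSF1 through heat shock elements. Both sets are known to rise when solid tissue is digested into single cells, and growth factors and cytokines induce the same immediate early genes in intact tissue.

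The promoters of 4 members are shown because they hold a CArG box or a heat shock element and because the Hsp70 pair is a near copy. Each line gives the 250 bases before the RefSeq start of transcription (GRCm38.p6), 5′ to 3′ on the strand of the gene, Capitals mark the CArG box, the site of SRF, in Zfp36 (chr7:28379229-28379478, minus strand), and the heat shock element in Jun (chr4:95052223-95052472, minus strand), Hspa1a (chr17:34972157-34972406, minus strand) and Hspa1b (chr17:34959239-34959488, minus strand).
Zfp36: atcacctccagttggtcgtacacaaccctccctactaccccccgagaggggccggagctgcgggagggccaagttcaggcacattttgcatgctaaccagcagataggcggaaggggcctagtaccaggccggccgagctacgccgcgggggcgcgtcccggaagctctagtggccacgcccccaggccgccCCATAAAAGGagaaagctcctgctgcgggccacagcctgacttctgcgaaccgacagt
Jun: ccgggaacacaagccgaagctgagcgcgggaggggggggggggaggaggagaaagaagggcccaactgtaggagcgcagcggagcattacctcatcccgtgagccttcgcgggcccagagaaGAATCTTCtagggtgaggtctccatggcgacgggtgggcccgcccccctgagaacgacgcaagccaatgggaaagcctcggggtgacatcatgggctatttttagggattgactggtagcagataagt
Hspa1a: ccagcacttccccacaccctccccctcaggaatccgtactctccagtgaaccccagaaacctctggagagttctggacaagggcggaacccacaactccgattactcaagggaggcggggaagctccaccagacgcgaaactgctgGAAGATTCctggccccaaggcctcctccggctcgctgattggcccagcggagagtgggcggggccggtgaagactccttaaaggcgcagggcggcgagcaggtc
Hspa1b: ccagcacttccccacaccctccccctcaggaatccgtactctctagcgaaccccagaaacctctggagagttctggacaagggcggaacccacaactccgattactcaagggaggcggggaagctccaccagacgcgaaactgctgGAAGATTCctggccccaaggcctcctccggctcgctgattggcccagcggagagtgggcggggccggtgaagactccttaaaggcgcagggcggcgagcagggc

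The RefSeq promoter table used here matched 8 of the 10 members, and Egr1 and Ier2 were not analysed here. On both strands, the heat shock element (GAANNTTC) was found in Jun at -128 and in Hspa1a and Hspa1b at -104 from the start of transcription, and in 6.69% of 32851 promoters of the same length. The CArG box, held by 1.47% of promoters, was found in Zfp36 at -58, and TATAAA, held by 12.4%, in Fos at -33. CCAAT was in Jun (-65), Junb (-36), Hspa1a and Hspa1b (both -67), against 33.8% of promoters. Neither the CRE (TGACGTCA, 1.55% of promoters) nor the AP-1 site (TGANTCA, 6.75%) matched in any of the 8 windows, which says only that these letters are not in these windows. The Hspa1a and Hspa1b promoters shared 247 of 250 bases (98.8%). Their transcripts shared 62.3% and 64.2% of their 43-base windows, the read length, with another gene (each other and Hspa1l), so their reads cannot be fully told apart, while for the immediate early members the share was 0% except in Zfp36 (1.99%).

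Immediate early transcripts were read in most cells of both tumors. Fos had at least 1 read in 97.0% of the 727 wells, Egr1 in 93.9%, Junb in 89.5%, Zfp36 in 88.3%, Jun in 85.1%, Ier2 in 79.5%, Fosb in 62.3% and Atf3 in 24.1%. The 10 genes together took a median of 0.658% of the endogenous reads of a well in tumor 1 and 0.533% in tumor 2, with a maximum of 4.81% and 5.28%. All 8 immediate early genes were read together in 133 wells, 7 of them in 269 and 6 in 135, whereas 3 wells had none. The sparser genes lay inside the wells of the common ones. Of the wells with a Fosb read, 228 of 230 in tumor 1 and 221 of 223 in tumor 2 also had a Fos read, and of those with an Atf3 read, 86 of 88 and 87 of 87 had an Egr1 read, which the high shares of Fos and Egr1 over all wells largely fix.

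Per gene length, Fos was the highest member. It ran from 0 to 9077 RPKM in tumor 1 (median 1296, mean 1629) and from 0 to 9339 in tumor 2 (median 881, mean 1234). Egr1 followed with a mean of 413 and 409 RPKM (medians 315 and 329), then Zfp36 with 387 and 324, Junb with 267 and 216, Jun with 154 and 134, and Ier2 with 116 and 125. The order of these 6 means was the same in both tumors, and no neighbours in it had overlapping pairs of tumor means. Fosb (37.4 and 51.1 RPKM), Atf3 (43.3 and 28.5) and Hspa1a (40.3 and 14.6) changed places between the tumors, and their order is not separated by the spread. Atf3 was unevenly spread over wells, with a median of 0 in both tumors and a maximum of 2209 RPKM in tumor 1 and 1113 in tumor 2. Hspa1b was lowest, at 10.0 and 5.46 RPKM. The levels of both Hsp70 genes depend on how reads shared by these near copies were counted, which is not given. Ranked by variation beyond the technical noise of the ERCC spike-ins, Atf3 stood at 294 of 10815 genes, Zfp36 at 451 and Fos at 500, and Hspa1b was the least variable member at 9283.

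The Hsp70 genes differed between the tumors more than any immediate early gene. Hspa1a was read in 61.4% of the wells of tumor 1 (95% exact binomial interval 56.2 to 66.4) and 40.4% of tumor 2 (35.2 to 45.7), and Hspa1b in 61.1% (56.0 to 66.1) and 36.4% (31.4 to 41.7). These intervals cover counting error only. The mean log2(RPKM + 1) of Hspa1a was 3.12 in tumor 1 and 1.66 in tumor 2, and that of Hspa1b 2.04 and 1.15. Among the immediate early genes the largest such difference between tumors was 0.46, in Fos. The wells with at least 42000 reads (359 in tumor 1 and 332 in tumor 2) were also thinned to that depth. The shares were then 56.3% and 32.8% for Hspa1a and 42.6% and 24.1% for Hspa1b, so tumor 1 stayed above tumor 2 at equal depth. The difference was untestable with 1 plate per tumor.

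Both Hsp70 genes were read in 196 wells of tumor 1 and 97 of tumor 2, and neither in 112 and 179. Of the 537 wells with at least 6 immediate early genes, 161 lacked both Hsp70 genes (53 and 108 by tumor), beside 291 of all 727 wells. Of the 28 wells with at most 2 immediate early genes, 2 had both Hsp70 genes.

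The immediate early genes varied together from well to well in each tumor. Over the 28 pairs, the median Spearman correlation was 0.590 in tumor 1 and 0.498 in tumor 2 (mean 0.544 ± 0.0651, SD over 2 tumors). The highest pairs in tumor 1 included Fos with Junb, at 0.740 and 0.663 by tumor, and Junb with Egr1, at 0.705 and 0.701. Fos with Fosb, heterodimer partners of the Jun proteins, reached 0.697 and 0.692. Atf3, read in 24.1% of wells, was the exception, and its 7 pairs had medians of 0.255 and 0.275, against 0.639 and 0.583 for the 21 pairs without it. These values are descriptions over wells that share a plate, a dissociation and a range of depths.

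**Figure D1:**
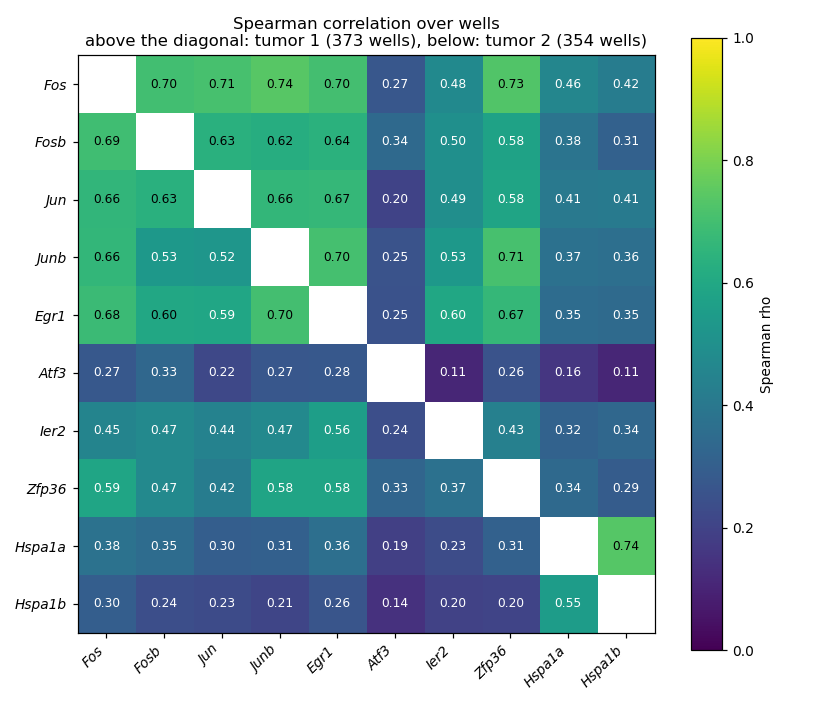
Spearman correlation over wells of log2(RPKM + 1) for each pair of the 10 genes, with tumor 1 (373 wells) above the diagonal and tumor 2 (354 wells) below, colored from 0 to 1. The 21 immediate early pairs without Atf3 lie between 0.434 and 0.740 in tumor 1 and between 0.374 and 0.701 in tumor 2, and the Atf3 row and column are darker.

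Hspa1a and Hspa1b correlated with each other at 0.736 and 0.551 (mean 0.643 ± 0.130). How reads that match both near copies were counted is not given in the sources used here. Immediate early genes and Hsp70 genes were more loosely joined. Their 16 pairs had medians of 0.349 and 0.252 (SD over tumors 0.0687), and the highest was Fos with Hspa1a at 0.460 and 0.379. Thinning to 42000 reads gave medians of 0.537 and 0.462 for the immediate early pairs and 0.279 and 0.163 between the sets. Hspa1a with Hspa1b was then at 0.625 and 0.413, below the immediate early median in tumor 2.

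**Figure D2:**
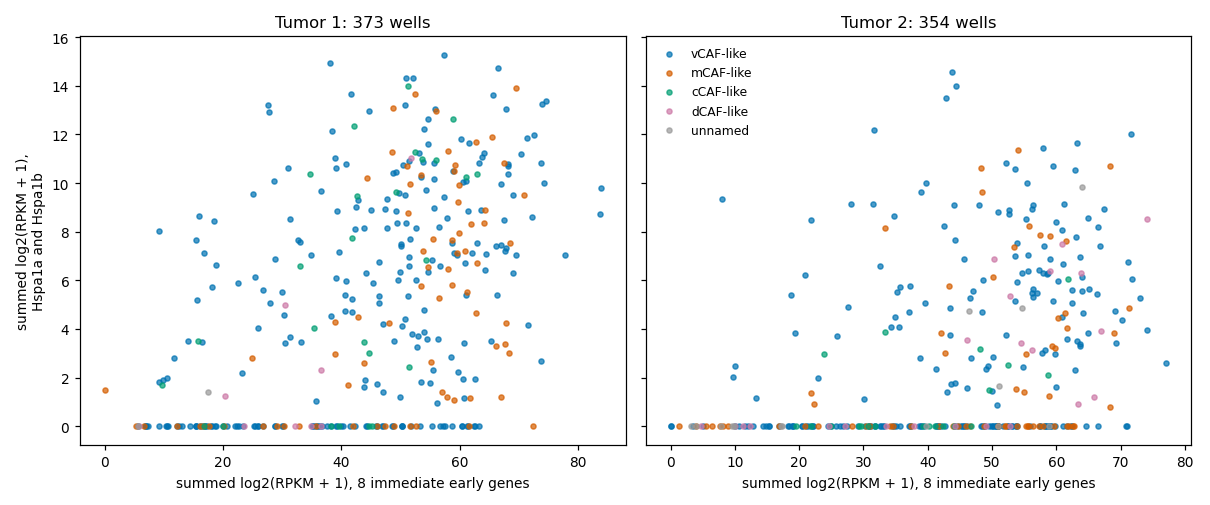
Summed log2(RPKM + 1) of the 8 immediate early genes (x axis) and of Hspa1a and Hspa1b (y axis) in each well, 1 panel per tumor, colored by class. Wells with no Hsp70 read lie along 0 at nearly every immediate early level, 112 in tumor 1 and 179 in tumor 2.

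The joint variation was also seen within single classes. In vCAF-like wells alone the median of the immediate early pairs was 0.589 and 0.490 by tumor, and in mCAF-like wells alone 0.655 and 0.595. Library properties moved with the sums. The summed log2(RPKM + 1) of the 8 immediate early genes correlated with the endogenous reads of the well at 0.345 and 0.386, with the number of genes detected at 0.357 and 0.414, and with the ERCC share of reads, which is higher where a well gave less endogenous RNA, at -0.425 and -0.428. After the ranks were adjusted for genes detected and ERCC share, the pairs still had medians of 0.549 and 0.450. For the Hsp70 sum the correlations were weaker, at 0.170 and 0.194 with reads and -0.234 and -0.152 with the ERCC share. Plate position gave smaller values. Over all kept wells the immediate early sum was at -0.105 and 0.000624 with the plate row and at -0.0261 and 0.0356 with the column, and the Hsp70 sum at most at 0.0903. Within vCAF-like wells the values farthest from 0 were -0.147 for the immediate early sum with the row in tumor 1 and 0.105 for the Hsp70 sum with the column in tumor 2.

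Of 11705 other genes, the 10 most like the immediate early sum, ranked by the lower of both tumors' correlations, were led by Dusp1 (0.637 and 0.619), a phosphatase of MAP kinases. Btg2, an antiproliferative early gene, followed at 0.588 and 0.589, and Jund, a further AP-1 subunit, at 0.628 and 0.565. Ppp1r15a, Nr4a1, Socs3, Gadd45b, Cyr61, Nfkbia and Ier3 completed the 10. Of these 10 genes 9 belong to the lists of other early-induced genes, and Ppp1r15a, a regulator of eIF2alpha dephosphorylation, to none. The median lower correlation was 0.288 over 17 other early transcription factors, 0.271 over 21 feedback regulators 0.184 over 7 secreted factors, 0.162 over 8 other AP-1 genes, 0.111 over 11 other stress genes, 0.106 over 16 upstream factors such as Srf and Hsf1, and 0.0865 over 19 other chaperones, against 0.0595 over all genes, of which 21 exceeded 0.3.

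Genes like the Hsp70 sum were fewer and weaker. Btg2 led at 0.391 and 0.335, followed by Nr4a1, Jund, Cyr61 and Dusp1, all 5 of them also among the 10 like the immediate early sum. Hspa8, the constitutive Hsp70 chaperone, reached 0.347 and 0.260, and the others were Cxcl1, Rgs16, Decr1 and Kctd10. Only 3 of 11705 genes exceeded 0.3 in both tumors. The Hsp70 sum rests on 2 genes and was 0 in 112 wells of tumor 1 and 179 of tumor 2, while the immediate early sum rests on 8. The part of these ties in the weaker values was not tested.

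**Figure D3:**
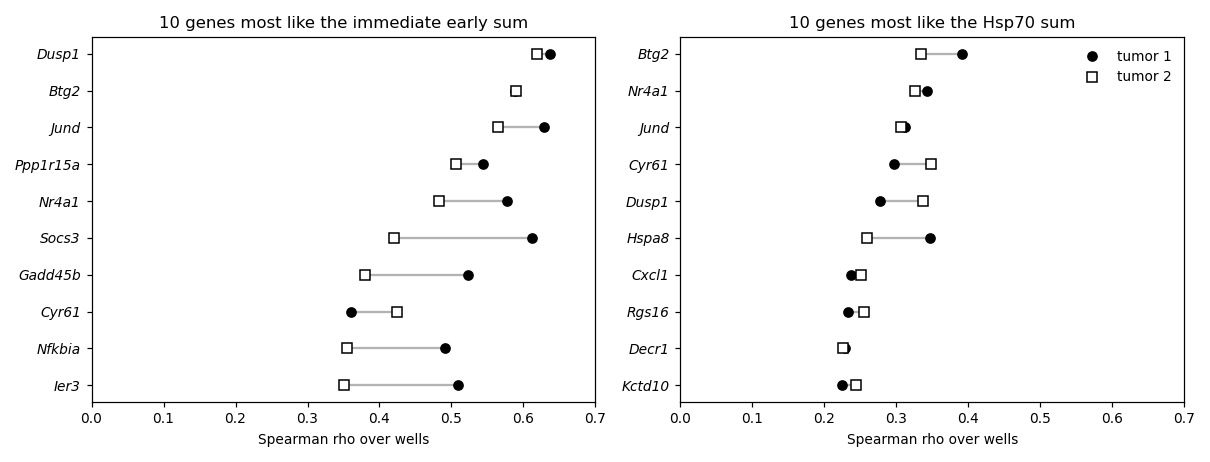
Spearman correlation over wells with the summed immediate early genes (left) and the summed Hsp70 genes (right) for the 10 genes ranked highest by the lower of both tumors' values. Filled circles are tumor 1 and open squares tumor 2. Dusp1 is highest on the left at 0.637 and 0.619, and Btg2 on the right at 0.391 and 0.335.

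Across classes the immediate early genes were read in every class, and the classes overlapped widely. Mean log2(RPKM + 1) of Fos in tumors 1 and 2 was 9.09 and 8.78 in vCAF-like, 9.08 and 8.13 in mCAF-like and 9.20 and 7.83 in cCAF-like wells. Egr1 was at 6.79 and 7.22 in vCAF-like and 8.17 and 7.54 in mCAF-like wells, and Ier2 at 4.75 and 5.05 against 6.28 and 5.76, so for both genes the mCAF-like means lay above the vCAF-like means in each tumor. The same held for Fosb (2.82 and 3.26 against 3.89 and 3.99) and Jun (5.58 and 5.51 against 6.54 and 5.89). It did not hold for Fos, Junb, Atf3 and Zfp36. The mCAF-like wells also had more reads (median 278576 against 191893), more genes detected (5686 against 4027) and a lower ERCC share (5.93% against 14.2%), and the part of these properties in the class values was not tested. Zfp36 was at 6.93 and 6.89 in vCAF-like and 6.96 and 5.84 in mCAF-like wells.

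The largest spread between tumors was in the dCAF-like class. Fos was at 5.92 in the 9 wells of tumor 1 and 8.64 in the 23 of tumor 2, Fosb at 0.45 and 4.58, and Zfp36 at 3.71 and 5.64. In medians, the wells of tumor 1 had an ERCC share of 14.4%, 4771 genes and 263513 reads, against 6.26%, 6086 and 154733 in tumor 2. The part of these properties in the difference was not tested. Atf3 was at 1.61 in tumor 2 and had no read in the 9 wells of tumor 1, a count of 0 that leaves room for a share as high as 33.3%. The Hsp70 genes parted the tumors most in the cCAF-like class, where Hspa1a was at 3.89 and 0.83 and Hspa1b at 2.33 and 0.27. Epithelial markers were at a mean of 1.58 and 1.55 in dCAF-like wells and 0.10 to 0.24 in the other 3 classes, led by Krt5 in tumor 1 (4.33) and Cldn3 in tumor 2 (3.71), with Krt19 and Cldn4 at 0 in tumor 1. Their part in the dCAF-like values was not tested. Immune markers stayed between 0.005 and 0.17 in all 4 classes. The endothelial list was at 1.10 and 1.22 in vCAF-like, 0.46 and 0.29 in mCAF-like, 1.38 and 1.39 in cCAF-like and 0.0903 and 0.37 in dCAF-like wells. It was led by Eng outside the dCAF-like class, and the defining genes Pecam1 and Cdh5 were at 0 in vCAF-like and cCAF-like wells of both tumors. Over all wells its level correlated with the immediate early sum at 0.109 and 0.138 and with the Hsp70 sum at 0.184 and 0.132, and its part in the class values was not tested.

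**Figure D4:**
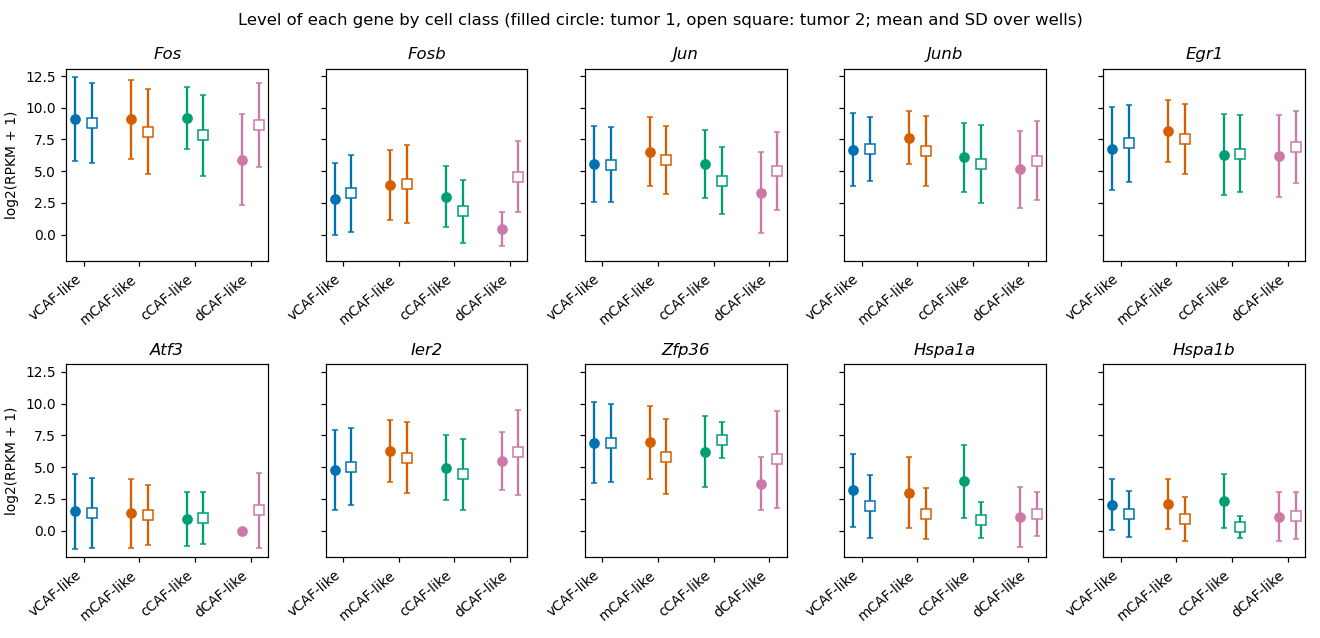
Mean log2(RPKM + 1) of each gene in the 4 named classes, with filled circles for tumor 1, open squares for tumor 2 and bars for the SD over wells. Bars overlap between all classes for most genes, and Fosb and Atf3 are near 0 in the 9 dCAF-like wells of tumor 1.

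Reads were then summed per class and tumor, and each class was set against the vCAF-like class with edgeR's quasi-likelihood test (n = 2 tumors). The 3 contrasts share the vCAF-like libraries. In these sums, fewer transcribing cells and less RNA per cell cannot be told apart. In the mCAF-like contrast 0 of 10 members were called at a Benjamini-Hochberg adjusted p of 0.05 (lowest 0.710), against 4.45% of 11712 genes (2.35% higher and 2.1% lower). The counts of 0 held in the cCAF-like contrast (lowest adjusted p 0.453, background 0.316%, with 0.265% higher and 0.0512% lower) and the dCAF-like contrast (0.234, background 8.65%, with 3.01% higher and 5.64% lower). By edgeR 0 members had an unadjusted p under 0.05 in any contrast, against 15.5%, 12.1% and 23.8% of all genes in the mCAF-like, cCAF-like and dCAF-like contrasts. DESeq2 called 0 members, against 1345, 795 and 2219 of the 11712 genes. At an unadjusted p under 0.05 it had 0, 1 and 0 members, against 18.1%, 15.4% and 28.4% of all genes. Among all genes, 521 (275 higher), 37 (31 higher) and 1013 (352 higher) were called. With the tumor as a block, 346, 1 and 797 were called, and again 0 members. With ERCC totals as the library size, 1062 of 1239 calls in the mCAF-like and 760 of 1143 in the dCAF-like contrast were higher, and without TMM 201 of 491 in the mCAF-like contrast were higher.

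In mCAF-like cells the early regulator Ier2 had 374 and 290 TMM-scaled CPM (counts scaled to a common library size) by tumor, against 192 and 205 in vCAF-like cells. This was a log2 fold change of 0.74 ± 0.56 (SE derived from the edgeR test statistic). Egr1 had 2164 and 1846 against 1474 and 1603, a change of 0.38 ± 0.30. Both were higher in each tumor, but neither passed the test (adjusted p = 0.710 for Ier2 and 0.726 for Egr1 by edgeR). Jun was at 0.50 ± 0.48, Junb at 0.32 ± 0.42 and Fosb at 0.52 ± 1.19, also higher in each tumor. Fos was at -0.27 ± 0.47, Zfp36 at -0.42 ± 0.91 and Atf3 at -0.46 ± 1.46, all lower in each tumor. Hspa1a was at -0.31 ± 1.18 and Hspa1b at -0.03 ± 0.95, both higher in tumor 1 and lower in tumor 2. With ERCC totals as library size the 5 negative values turned positive, while the all-gene median moved from -0.02 to 0.84.

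In cCAF-like cells all 10 fitted values lay below 0, with a median of -0.68 against -0.05 over all genes, and none was called. Egr1 came closest, with 847 and 1098 CPM against 1474 and 1603 (-0.66 ± 0.30, unadjusted p = 0.0618 and adjusted p = 0.453 by edgeR). Jun was at -0.90 ± 0.48, Fosb at -1.09 ± 1.20 and Atf3 at -1.45 ± 1.49. In tumors 1 and 2, Jun was at -0.49 and -1.47, Fosb at -0.95 and -1.21, and Atf3 at -2.45 and -0.74. Fos, Junb, Ier2 and Zfp36 lay between -0.58 and -0.76. The Hsp70 genes pointed different ways in the tumors, with Hspa1a at 187 CPM in tumor 1 against 131 in vCAF-like cells and at 11.6 in tumor 2 against 83.6. Its fitted -0.11 ± 1.19 became 0.51 without tumor 2, and Hspa1b went from -0.36 to 0.31. With ERCC totals the all-gene median was 0.70, and Fos, Junb, Egr1, Zfp36, Hspa1a and Hspa1b lay above 0.

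In dCAF-like cells 9 of 10 fitted values lay below 0 and Ier2 above it, with a median of -0.99 against -0.08 over all genes. The median was -0.37 without tumor 1 and -1.84 without tumor 2, against -0.07 and -0.27 over all genes. Junb had 168 and 393 CPM against 600.0 and 488 (-0.95 ± 0.42, adjusted p = 0.234 by edgeR), and Jun 157 and 380 against 551 and 554 (-1.04 ± 0.48). Hspa1a was at -1.70 ± 1.23 and Hspa1b at -1.15 ± 0.97, lower in both tumors. The small tumor 1 library of 9 wells set several values. Zfp36 had 47.0 CPM there against 885, and 529 against 789 in tumor 2, and Fosb 6.60 against 168, but 282 against 230 in tumor 2. Without tumor 1, Fosb turned to 0.30 and, without tumor 2, Ier2 to -0.71 from 0.55 ± 0.56, while ERCC totals (median of all genes 0.56) turned Fosb and Egr1 positive.

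**Figure D5:**
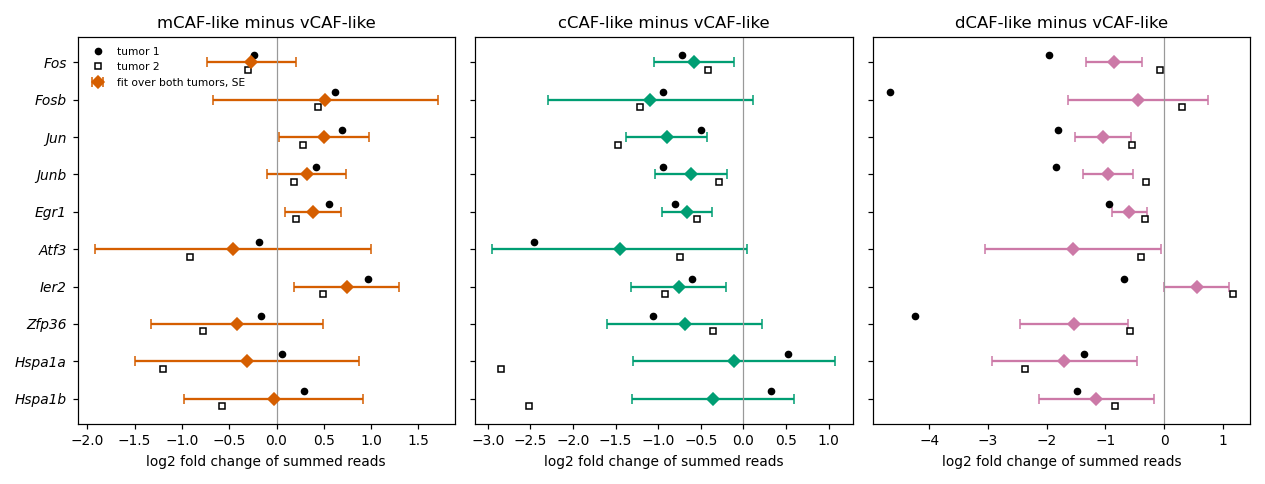
Log2 fold change of summed reads between each class and the vCAF-like class, with the fitted value and its test-derived SE (diamond and bar), tumor 1 (filled circle) and tumor 2 (open square). The scales of the 3 panels differ, and the tumor 1 point of Atf3 in dCAF-like cells is not drawn because that library had 0 reads. No member passed an adjusted p of 0.05, and with ERCC totals as library size 13 of the 30 fitted values change sign.

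Of 106 other early-induced, heat shock and stress genes, 99 were tested. Against vCAF-like cells, 1 was called higher and 2 lower in mCAF-like cells, 0 in cCAF-like cells, and 0 higher and 5 lower in dCAF-like cells. Over all genes 4.45%, 0.316% and 8.65% were called. The genes called are described singly, and 3 of the 5 in dCAF-like cells and 1 of the 3 in mCAF-like cells came from the 7 tested genes of secreted factors. In the mCAF-like, cCAF-like and dCAF-like contrasts, 16, 16 and 25 of the 99 had an unadjusted p under 0.05 by edgeR, against 15.5%, 12.1% and 23.8% of all genes. DESeq2 called 9, 7 and 18 of them, against 1345, 795 and 2219 of all 11712 genes. Klf4, an early-induced transcription factor, rose in mCAF-like cells, to 87.2 and 146 CPM from 4.27 and 10.5 (log2 3.98 ± 0.77, adjusted p = 0.0393 by edgeR). Hbegf, a growth factor of the EGF family, and Btg1, an antiproliferative gene, fell by 1.98 ± 0.40 and 1.57 ± 0.22 (adjusted p = 0.0448 and 0.0158 by edgeR). In dCAF-like cells the cytokine genes Il6, Ccl2 and Cxcl1 fell, from 87.6 and 59.2, 182 and 136, and 320 and 164 CPM to 0.388 and 0, 0 and 3.23, and 1.16 and 5.81 (adjusted p = 0.0404, 0.0168 and 0.0254 by edgeR). Gadd45g (-3.13 ± 0.47) and Txnip (-1.49 ± 0.36) were the other two. With the tumor as a block, Hbegf (adjusted p = 0.0771) and Il6 (adjusted p = 0.0602) were no longer called.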

How the data were processed

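The deposited tables hold raw read counts and RPKM values for all 768 wells, mapped to tumors by the plate in the labels, and 0 columns were left unused. The authors made the counts with STAR, from single-end reads on mm10, counted over the RefSeq annotation (24490 endogenous genes, 92 ERCC spike-ins), and the deposited RPKM values with rpkmforgenes. Members and lists were chosen with earlier results of these data known.

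Cells were clustered on highly variable genes without the stress lists (Rtsne 0.17, 30 components, perplexity 27, DBSCAN with eps 2.5) and named from 8 to 10 markers per class. The naming rule (a lead of 2 on the log2 scale over other lists, or for cCAF-like cells 50% of wells with 50% of the markers) was set after marker levels were seen. Doublets were not called. The t-SNE map moves with small numerical changes, so class sizes can shift by a few wells, and with them the counts of called genes and calls near the threshold. Counts were summed per tumor and class and tested with edgeR 4.0.16 (TMM, glmQLFTest) over 11712 genes in 1 fit of 8 libraries. Each SE is the absolute log2 fold change divided by the square root of edgeR's F statistic. It is derived from the test and is not a spread over the tumors. DESeq2 1.42.0 and other scalings, filters and clusterings were alternatives. All libraries of 1 tumor share its animal, and deviations from class means correlated between them by 0.0198 to 0.108. On simulated data for mCAF-like minus vCAF-like (11712 genes), 47 of 100 genes changed by log2 2 and 85 of 100 changed by log2 3 were recovered, with 3 false calls. The changed genes were well-read ones, and their spread was drawn from the trend over genes. The recovery need not hold for single members, whose SE in this contrast ran from 0.30 (Egr1) to 1.46 (Atf3). The contrasts of the smaller cCAF-like and dCAF-like libraries were not simulated. Thinning to 42000 reads left out 36 wells. Levels are log2(RPKM + 1) with a pseudocount of 1, which understates changes of low genes. Correlations are Spearman's over wells, without a test. Named non-member genes were those called in a contrast (up to 8, largest fold, outside the class marker lists) and the 10 most like each sum. Binomial intervals and the limits for 0 wells (3 counts) reflect counting error alone.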

Additional observations from a re-analysis of the deposited data

Results flagged for a closer look

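Data outside the comparisons also held reads of the 10 genes. The 41 wells left out for having under 10000 reads carried 420 reads of the 10 genes, with Fos read in 22 of them and Egr1 in 22, and Hspa1a in 1. The 16 wells without a class name carried 12361 reads, with Fos and Egr1 each read in 14 wells and Atf3 in 4. No control wells were available to set a background for these values.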

How the results depend on the processing

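No member was called in any alternative fit of the 3 contrasts that gave a test. At an adjusted p of 0.001 this was fixed by the result at 0.05. Some edgeR fits came near the threshold. Against all other cells pooled, the lowest member adjusted p was 0.0587 in mCAF-like and 0.0540 in cCAF-like cells, both for Ier2. It was 0.0979 for Egr1 with ERCC totals (mCAF-like) and 0.0978 for Junb with each cell scaled to 1 total (dCAF-like). The number of all genes called moved by over 1.5 times in 18 of 47 combinations of setting and contrast. For mCAF-like minus vCAF-like the count was 346 with a replicate block, 1345 with DESeq2, 1239 with ERCC totals as library size, 1885 against all other cells pooled and 0 at an adjusted p of 0.001. For cCAF-like minus vCAF-like it was 1, 795, 225, 618 and 0 in the same order, and 18 without TMM (chosen after seeing the data), 15 with each cell scaled to 1 total, 149 without a filter, 17 with filterByExpr and 67 with Leiden clustering. For dCAF-like minus vCAF-like it was 2219 with DESeq2, 291 against all other cells and 4 at 0.001. The block changed the call of no member.

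Over the alternatives, 22 member values changed sign and 508 kept it. With ERCC totals, mCAF-like Fos was 0.62, Atf3 0.43, Zfp36 0.47, Hspa1a 0.60 and Hspa1b 0.87, cCAF-like Fos 0.18, Junb 0.15, Egr1 0.0914, Zfp36 0.0713, Hspa1a 0.66 and Hspa1b 0.40, and dCAF-like Fosb 0.35 and Egr1 0.0848. With 1 tumor left out, mCAF-like Hspa1a ranged from -1.20 to 0.0433 and Hspa1b from -0.57 to 0.27, cCAF-like Hspa1a from -2.84 to 0.51 and Hspa1b from -2.52 to 0.31, and dCAF-like Fosb from -4.69 to 0.30 and Ier2 from -0.71 to 1.17. mCAF-like Hspa1b was 0.0133 at eps 3.1 and 0.0899 against all other cells, and cCAF-like Hspa1a 0.0410 against all other cells. The cause was not tested. At eps 3.1 no cCAF-like class formed. A fit on a single tumor has no residual degrees of freedom and gave values without a test.

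The immediate early pairs gave 0.625 in mCAF-like wells only, and thinning gave 0.221 between the sets and 79.0% for the median share of wells with a read. Shares of wells with a read depend on depth. That of Hspa1a was 56.3% and 32.8% at 42000 reads, without the 36 shallower wells, against 61.4% and 40.4% at full depth.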
